A study of Homo sapiens with 24 samples.

Results

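The 6 mRNAs described here, DSP, MAP1B, MYH10, ATRX, MYO5A and AKAP12, were chosen because they stood above uncoupled beads when GFP-tagged RPAP3 was recovered from puromycin-treated cells. They are 6 of 28307 genes in the deposited count table, and each was followed through all 12 groups of libraries. The study sequenced the RNA recovered with a protein (RNA immunoprecipitation sequencing) in HCT116, a human colorectal carcinoma cell line edited with CRISPR/Cas9 to carry GFP on RPAP3 or on RUVBL1. Every group, uncoupled-bead controls included, came from 1 of these knock-in lines, and whether a line was 1 clone or several is not given in the sources used here. With the RPAP3 line there were 4 groups: GFP-Trap beads, which bind GFP and are called GFP beads below, after puromycin (100 µg/mL for 30 min); uncoupled agarose beads after puromycin; GFP beads, untreated; and uncoupled beads, untreated. With the RUVBL1 line both bead types were used after CB-6644 (0.5 µM for 16 h) together with puromycin, after CB-6644, after puromycin and untreated, which made 8 groups. Each group held 2 libraries, numbered 1 and 2 for RUVBL1 and lettered A and B for RPAP3. The labels do not say whether replicates were separate cultures, so the p-values below reflect the spread between libraries, and that spread may be technical.

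RPAP3 is a scaffold of R2TP, an HSP90 co-chaperone complex that also holds the AAA+ ATPases RUVBL1 and RUVBL2 and that helps to assemble large complexes such as RNA polymerase II and the PIKK kinases. When a chaperone binds a protein that is still being made, the mRNA can come down with it through the ribosome. Puromycin enters the growing chain, releases it and takes ribosomes apart, so mRNAs held in that way are expected to leave the beads. CB-6644 inhibits the ATPase activity of the RUVBL1/RUVBL2 complex. The 6 mRNAs encode very large proteins of different kinds. Desmoplakin (DSP) ties desmosomes to intermediate filaments, MAP1B binds microtubules, MYH10 is the heavy chain of non-muscle myosin IIB, MYO5A is a class V myosin that carries cargo along actin, AKAP12 is a scaffold that anchors protein kinase A, and ATRX is a chromatin remodeller of the SNF2 family that works with DAXX.

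The genes lie on different chromosomes of GRCh38.p14, except DSP and AKAP12, which are both on chromosome 6. By the RefSeq annotation of that build, DSP (gene ID 1832) spans chr6:7541671-7586714, MAP1B (4131) chr5:72107475-72209565, and MYH10 (4628) chr17:8474212-8630725. ATRX (546) spans chrX:77504880-77786216, MYO5A (4644) chr15:52307283-52529050, and AKAP12 (9590) chr6:151239967-151358559. Their genomic spans, introns included, were 45.0 kb for DSP, 102 kb for MAP1B, 119 kb for AKAP12, 157 kb for MYH10, 222 kb for MYO5A and 281 kb for ATRX. The median span of the 13126 protein-coding genes tested in the RPAP3 libraries was 31.2 kb. DSP is the shortest locus of the 6, with 39.6% of those genes longer, and ATRX the longest, with 4.15% longer.

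Library totals were 30844089 to 50394245 counts for RPAP3 and 9019665 to 33051512 for RUVBL1, ranges that overlap. The common coefficient of biological variation was 0.142 over the 8 RPAP3 libraries and 0.263 over the 16 RUVBL1 libraries, and the same difference is therefore harder to call with RUVBL1. Replicates correlated at 0.934 to 0.986 across genes on the log2 scale, and every pair differed by more than counting error. Of the epithelial markers of HCT116, EPCAM, CDH1, KRT8, KRT18, KRT19 and CDX2 were present, while VIL1 and CEACAM5 had a median of 0 CPM (counts scaled to a library of 1000000). Marker values were scaled by total counts alone, whereas all other CPM values below are after TMM scaling. Of 9 markers of other cells, PTPRC, HBB, CD3E, APOB and COL1A2 had a median of 0 CPM, ALB and PECAM1 medians of 0.0234 and 0.0501 CPM, VWF 0.929 CPM and COL1A1 7.97 CPM, and their sum was 5.66 to 45.8 CPM. The 2 puromycin groups of the RPAP3 line had a summed epithelial marker level of 4015 to 5026 CPM over both bead types, against 1440 to 1874 CPM in the untreated groups of that line. The first principal component, with 76.4% of the variance of the RPAP3 libraries, parted the same 4 libraries from the other 4. In the RUVBL1 line the epithelial sum was 4282 to 5407 CPM after puromycin and 3500 to 5256 CPM untreated, over both bead types. These RUVBL1 ranges overlap. There were 3 RUVBL1 libraries that stood apart from their replicates on the first 2 components, namely GFP beads after CB-6644 replicate 2, GFP beads after both drugs replicate 1, and uncoupled beads untreated replicate 2.

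DSP had the highest enrichment of the 70 genes called with RPAP3 after puromycin, and its values carry the description of this contrast, which chose the genes and is therefore given with no test. Over all 15202 genes tested, called or not, DSP was in place 37 by its ratio. DSP was at 663 and 1049.5 CPM on GFP beads after puromycin, against 155 and 124 CPM on uncoupled beads. Both GFP-bead libraries lay above both uncoupled-bead libraries, by a fitted log2 ratio of 2.65 ± 0.21 (SE), or 6.26-fold. MAP1B was at 46.1 and 77.9 CPM on GFP beads against 16.6 and 15.1 CPM on uncoupled beads, a log2 ratio of 1.99 ± 0.30. Among the called genes, MKI67, GOLGA4 and GOLGB1 stood between these and the other 4 mRNAs in the order of enrichment.

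The other 4 mRNAs had nearly equal enrichment with RPAP3 after puromycin, at log2 ratios of 1.49 to 1.52, although they differ widely in level. MYH10 was at 112 and 142 CPM on GFP beads against 44.4 and 45.8 CPM on uncoupled beads. The motor MYO5A was at 58.8 and 90.2 CPM on GFP beads against 24.1 and 30.0 CPM on uncoupled beads. AKAP12 was at 5451 and 8713 CPM on GFP beads against 2771 and 2389 CPM on uncoupled beads. For ATRX the values were 127 and 193 CPM on GFP beads and 54.1 and 60.7 CPM on uncoupled beads. In all 6 mRNAs replicate B of the GFP beads was the higher one, by 0.35 to 0.76 on the log2 scale, and both GFP-bead libraries stayed above both uncoupled-bead libraries. Without that replicate the log2 ratio was 2.26 for DSP and 1.09 for AKAP12.

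In this contrast 0.46% of the 15202 genes tested were called higher (edgeR's quasi-likelihood test, adjusted p under 0.05) and none lower, and nothing is read from the members' place among them. By p-value, the last gene called was ANKRD11 at a log2 ratio of 0.80 ± 0.17 and the first not called was CEP250 at 0.59 ± 0.13. POLR2A, the largest subunit of RNA polymerase II and a known client of this chaperone system, had a log2 ratio of 0.07 ± 0.17 after puromycin. As these are bulk samples, fewer cells containing an mRNA and less of it per cell cannot be told apart.

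**Figure D1:**
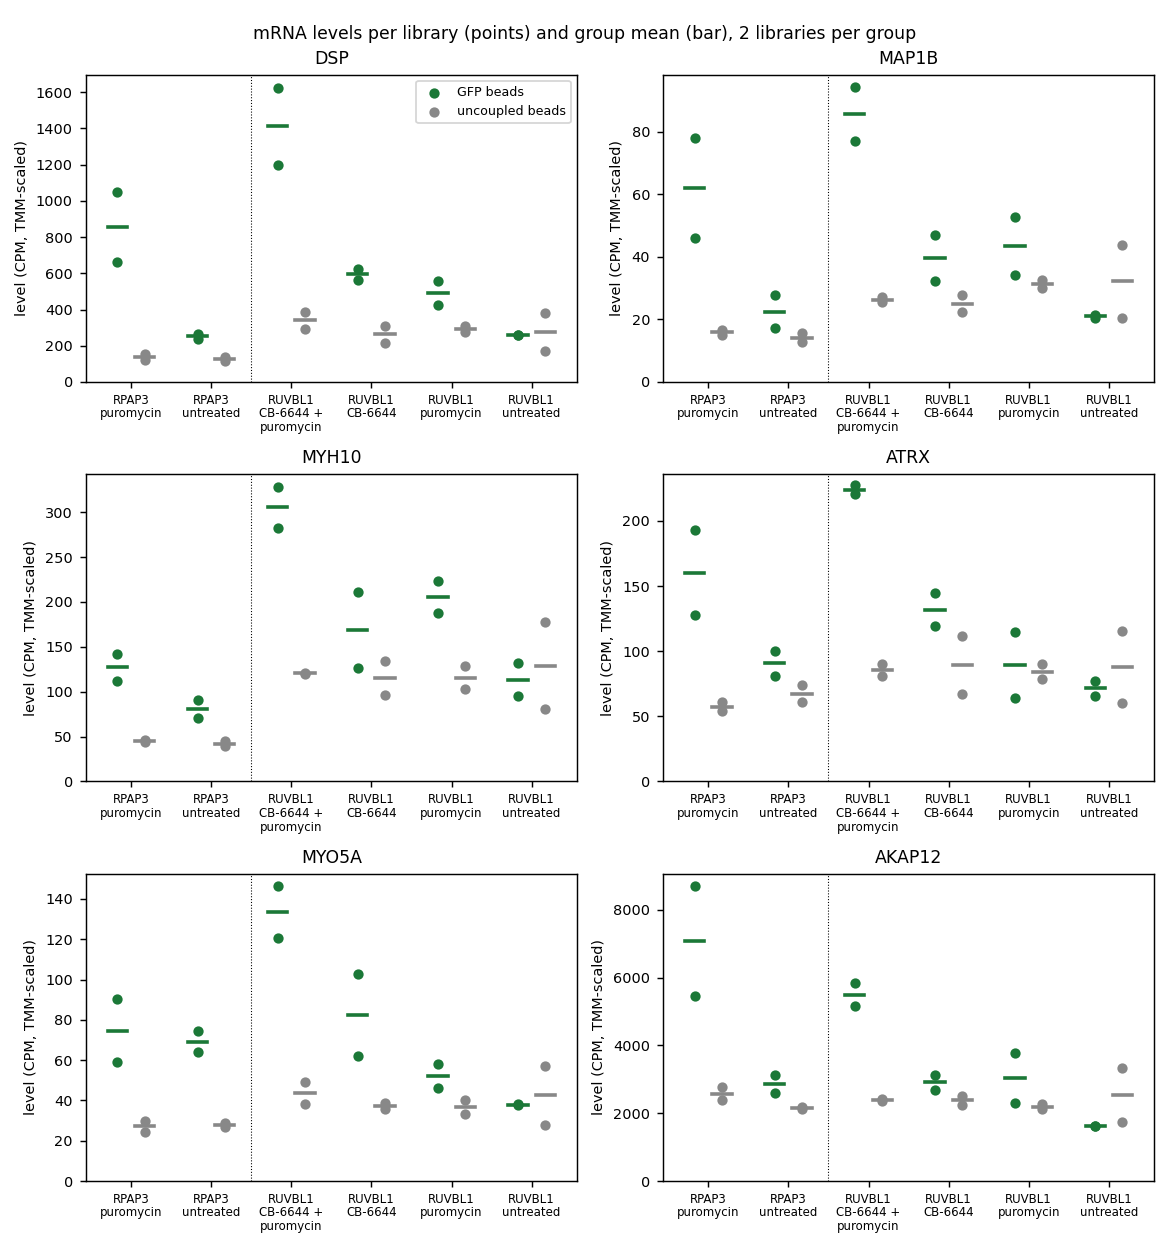
Levels of the 6 mRNAs in every library, in CPM after TMM scaling on linear axes from 0, with a panel per gene; green points are GFP beads, grey points uncoupled beads, short bars the mean of 2 libraries, and the dotted line parts the RPAP3 line from the RUVBL1 line. For DSP the GFP beads reach 1200.0 and 1622 CPM with RUVBL1 after both drugs and 663 and 1049.5 CPM with RPAP3 after puromycin, while uncoupled beads stay at or below 387 CPM.

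Untreated RPAP3 libraries were not used to choose the genes, and there 3 of the 6 mRNAs were called above uncoupled beads: MYO5A, MYH10 and DSP. MYO5A was at 63.8 and 74.7 CPM on GFP beads against 28.6 and 26.9 CPM on uncoupled beads, without overlap. Its log2 ratio was 1.35 ± 0.18 (adjusted p = 0.00021 by edgeR's quasi-likelihood test). MYH10 was at 70.7 and 90.4 CPM on GFP beads against 39.9 and 44.7 CPM on uncoupled beads, a log2 ratio of 0.96 ± 0.15 (adjusted p = 0.000416). DSP was at 239 and 267 CPM on GFP beads against 116 and 137 CPM on uncoupled beads, a log2 ratio of 1.04 ± 0.20 (adjusted p = 0.00906).

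The DSP call rested on single libraries, whereas its ratio did not. It was lost without replicate A of the GFP beads (log2 1.07, adjusted p = 0.245), without replicate B of the GFP beads (0.95, adjusted p = 0.203) and without replicate A of the uncoupled beads (0.90, adjusted p = 0.16). MYO5A and MYH10 were called in every such fit. When all 24 libraries shared 1 estimate of spread, MYO5A alone was called, with DSP at an adjusted p of 0.265 and MYH10 at 0.418. MAP1B, ATRX and AKAP12 had log2 ratios of 0.69 ± 0.30, 0.46 ± 0.18 and 0.44 ± 0.19 and adjusted p-values of 0.626, 0.457 and 0.506. All 3 had both GFP-bead libraries above both uncoupled-bead libraries, for ATRX by 81.1 and 100.5 CPM against 61.1 and 74.0 CPM. The share of all genes separated in this way was not counted, so nothing is read from it. The median log2 ratio of the 6 mRNAs was 0.83, against -0.01 over all genes tested, of which 1.53% were called higher and 0.00658% lower.

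POLR2A and the mRNA of RPAP3 itself give the scale of untreated enrichment in this line. POLR2A was at 5163 and 7708 CPM on untreated GFP beads against 153 and 172 CPM on uncoupled beads, a log2 ratio of 5.34 ± 0.20 (adjusted p = 9.45e-14). The RPAP3 mRNA, which encodes the bait, had a log2 ratio of 3.27 ± 0.14 untreated (adjusted p = 4.23e-13) and -0.08 ± 0.13 after puromycin. In untreated cells the ratios of the 6 mRNAs, 0.44 to 1.35, were below both.

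Between puromycin-treated and untreated RPAP3 cells the difference in enrichment contains the choosing contrast and is also given as a description. On the log2 scale it was 1.61 ± 0.28 for DSP, 1.30 ± 0.42 for MAP1B, 1.05 ± 0.25 for ATRX and 1.04 ± 0.27 for AKAP12. It was smaller for MYH10, at 0.56 ± 0.21, and near 0 for MYO5A, at 0.14 ± 0.25. These values contain the libraries that chose the genes, so high ratios after puromycin were favoured, and differences between the mRNAs were not tested. Without replicate B of the puromycin GFP beads the difference of MYO5A was -0.22. Over all genes tested 0.00658% were called with a higher enrichment after puromycin and 0.243% with a lower one. POLR2A had a difference of -5.27 ± 0.25 (adjusted p = 1.6e-11).

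Uncoupled-bead libraries of the RPAP3 line differed between puromycin-treated and untreated cells at many genes. After puromycin 23.5% of the tested genes were called higher and 19.4% lower than untreated. These were 3577 and 2955 genes at a median log2 difference of -0.06, or 2862 and 4310 genes with upper-quartile scaling, where the median was -0.23. The 6 mRNAs had log2 differences of -0.14 (ATRX) to 0.36 (AKAP12) on these beads, again with no test because the puromycin libraries belong to the choosing contrast. The epithelial marker sum given above also differed between puromycin-treated and untreated RPAP3 cells on both bead types. Its part in the enrichment was not tested. In the RUVBL1 line, where the spread was larger, none of 15976 genes was called on uncoupled beads between puromycin and untreated, as fitted here. Whether the drug or another difference between the libraries gave the RPAP3 differences was not tested.

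**Figure D2:**
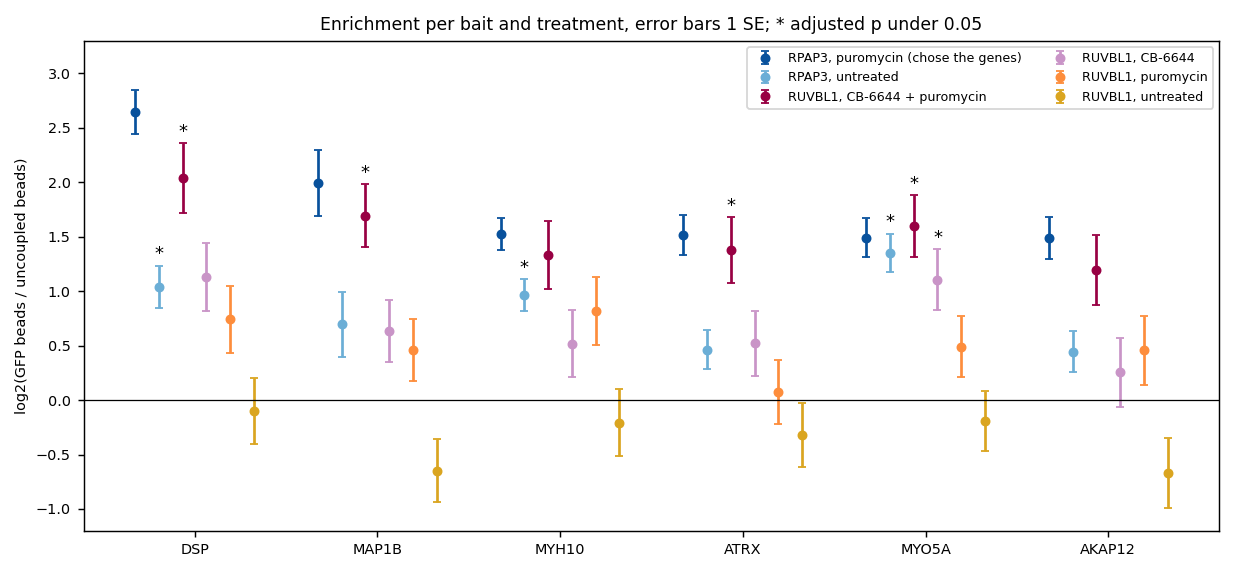
Enrichment of each mRNA as log2 of GFP beads over uncoupled beads, fitted from 2 libraries of each, with error bars of 1 SE; the colours are the 6 pairs of bait and treatment, and asterisks mark an adjusted p under 0.05, with no test for RPAP3 after puromycin, which chose the genes. Every mRNA lies above 1 with RUVBL1 after both drugs and below 0 with untreated RUVBL1, where none was called.

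The RUVBL1 libraries share no sample with the choosing contrast. In cells given CB-6644 and puromycin together, 4 of the 6 mRNAs were called above uncoupled beads, against 0.557% of the 15976 genes tested, and the median log2 ratio was 1.49 against 0 over all genes. DSP was at 1200.0 and 1622 CPM on GFP beads against 387 and 294 CPM on uncoupled beads. Its log2 ratio was 2.04 ± 0.32, or 4.11-fold (adjusted p = 0.0011 by edgeR's quasi-likelihood test). MAP1B was at 77.1 and 94.3 CPM on GFP beads against 27.0 and 25.6 CPM on uncoupled beads, a log2 ratio of 1.69 ± 0.29 (adjusted p = 0.0032). MYO5A was at 120.5 and 146 CPM on GFP beads against 49.3 and 38.3 CPM on uncoupled beads, at 1.60 ± 0.28 (adjusted p = 0.00424).

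ATRX was the fourth mRNA called in this condition, with 220.4 and 227 CPM on GFP beads against 81.0 and 90.2 CPM on uncoupled beads. Its log2 ratio was 1.38 ± 0.30 (adjusted p = 0.0331). MYH10 was at 283 and 328 CPM on GFP beads against 121 and 120.2 CPM on uncoupled beads, at 1.33 ± 0.31 (adjusted p = 0.058). AKAP12 was at 5159 and 5835 CPM on GFP beads against 2428 and 2354 CPM on uncoupled beads, at 1.19 ± 0.32 (adjusted p = 0.13). In each of the 6 both GFP-bead libraries exceeded both uncoupled-bead libraries, and the share of all genes that did so was not counted. DESeq2 called all 6, and over all 15976 genes it called 209 higher and 3 lower.

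The calls after both drugs depended on the uncoupled beads. Without uncoupled-bead replicate 1 only DSP was called, and without uncoupled-bead replicate 2 none was, with DSP at a log2 ratio of 1.85 (adjusted p = 0.0948) and MAP1B at 1.64 (adjusted p = 0.12). Over all genes 18 were called without replicate 1 and 26 without replicate 2, in place of 89. ATRX was also lost without either GFP-bead replicate, at adjusted p-values of 0.179 without replicate 1 and 0.134 without replicate 2, and with total-count scaling (adjusted p = 0.101).

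Of the 89 genes called after both drugs, 61 were non-coding by RefSeq, among them small nucleolar RNAs with the highest ratios, and 28 were protein-coding. DSP had the highest ratio of these 28, followed by GOLGA4 (1.76), AKAP9 (1.70), MAP1B and MYO5A, with ATRX in place 10. The genes called with RPAP3 after puromycin could be looked up in the RUVBL1 libraries, which are other libraries. Of those 70 genes, 17 were also called with RUVBL1 after both drugs, 24.3% of the 70 and 19.1% of the 89, and 13 of the 17 were not among the 6 described here. The other 64 genes had a median log2 ratio of 0.96 with RUVBL1 after both drugs, 0.65 after CB-6644, 0.17 after puromycin and -0.17 untreated. Over all genes tested, called or not, DSP was in place 412 by its ratio with RUVBL1 after both drugs. The scatter of all genes sets these ratios beside those with RPAP3.

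**Figure D3:**
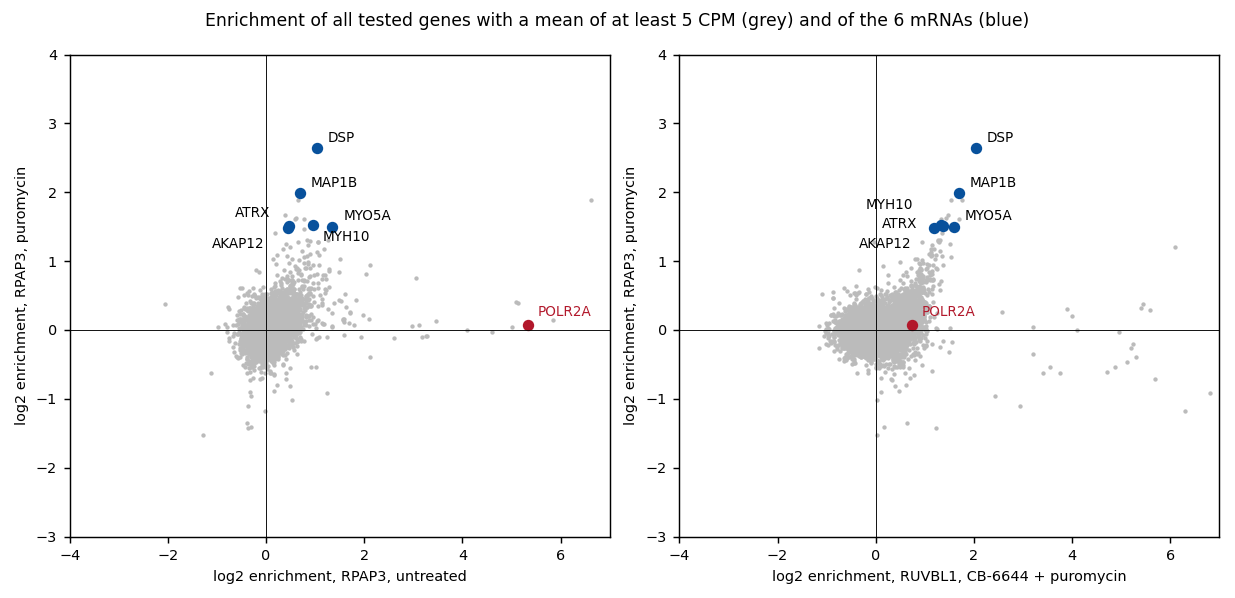
Log2 enrichment of every tested gene with a mean of at least 5 CPM (grey), with RPAP3 after puromycin on the vertical axis against untreated RPAP3 (left) and RUVBL1 after CB-6644 and puromycin (right); no library is on both axes of a panel. The 6 mRNAs (blue) were chosen by the vertical axis; DSP lies at 2.65 there, at 1.04 untreated and at 2.04 with RUVBL1 after both drugs, while POLR2A (red) lies at 0.07, 5.34 and 0.75.

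With either drug alone the RUVBL1 enrichment of the 6 mRNAs was smaller. After CB-6644, MYO5A was at 103 and 62.0 CPM on GFP beads against 38.9 and 35.9 CPM on uncoupled beads, and it was the only one called, at a log2 ratio of 1.11 ± 0.28 (adjusted p = 0.0398). DSP was at 565 and 624 CPM on GFP beads against 311 and 217 CPM on uncoupled beads, a ratio of 1.13 ± 0.31. It missed the threshold (adjusted p = 0.0524), while 6 of 7 other settings called it. Those 6 settings called 308 to 983 of all genes higher, in place of 298. The MYO5A call was lost without GFP-bead replicate 1 (log2 0.67, adjusted p = 0.0919) and without uncoupled-bead replicate 1 (1.17, adjusted p = 0.214) or 2 (1.04, adjusted p = 0.338). The other 4 mRNAs had ratios of 0.26 (AKAP12) to 0.63 (MAP1B). Of all genes 1.87% were called higher and 0.557% lower. These counts, 298 higher and 89 lower, were 771 and 47 with total-count scaling and 308 and 176 with upper-quartile scaling. They were 1560 and 1994 without GFP-bead replicate 1, 158 and 13 without GFP-bead replicate 2, 62 and 1 without uncoupled-bead replicate 1, and 52 and 1 without uncoupled-bead replicate 2.

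After puromycin alone, none of the 6 mRNAs was called with RUVBL1, the bait that shares the treatment with the choosing contrast. The ratios were 0.82 ± 0.31 for MYH10 (adjusted p = 0.0817), 0.74 ± 0.31 for DSP (adjusted p = 0.111) and 0.07 (ATRX) to 0.49 (MYO5A) for the others. DSP was at 559 and 427 CPM on GFP beads against 311 and 274 CPM on uncoupled beads, without overlap. ATRX did overlap, with 115 and 63.7 CPM on GFP beads and 89.9 and 78.8 CPM on uncoupled beads. Of all genes 9.95% were called higher and 3.82% lower, 1590 and 611 genes, or 1361 and 1181 with upper-quartile scaling. Without GFP-bead replicate 2 they were 336 and 7, and without uncoupled-bead replicate 1 they were 301 and 6. DESeq2 called DSP (adjusted p = 0.0439) and MYH10 (adjusted p = 0.036), and a fit of the 4 compared libraries alone called DSP, MYH10 and MYO5A. Both fits also called more of all genes. DESeq2 had 1954 higher and 1135 lower of 15976, and the fit of 4 libraries had 2899 higher and 1906 lower of 14009.

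In untreated RUVBL1 cells all 6 ratios were below 0, from -0.67 ± 0.32 for AKAP12 and -0.65 ± 0.29 for MAP1B to -0.10 ± 0.31 for DSP, and none was called in either direction. The share of all genes called was 0.914% higher and 0.0188% lower. The 2 uncoupled-bead libraries were far apart: DSP was at 258 and 262 CPM on GFP beads and at 379 and 169.8 CPM on uncoupled beads. AKAP12, at 1611 and 1619 CPM on GFP beads and 3339 and 1726 CPM on uncoupled beads, was the only one whose groups did not overlap. The ratios moved with the uncoupled-bead replicate left out. Without the high replicate 1 the 6 ratios were -0.12 to 0.59, so not all turned positive, and without replicate 2 they were -1.08 to -0.56. POLR2A in the same libraries was enriched, at 4.47 ± 0.51 (adjusted p = 9.85e-05).

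Differences between RUVBL1 treatments were tested as differences of enrichments. After both drugs against untreated, DSP was higher by a log2 difference of 2.14 ± 0.44 (adjusted p = 0.0378) and MAP1B by 2.34 ± 0.41 (adjusted p = 0.00852), while the other 4 differed by 1.54 to 1.86 with adjusted p-values of 0.0587 to 0.253. Of all genes 0.113% were called higher in that test, which was added after the values were seen. It rests on the libraries of untreated cells as well. Without uncoupled untreated replicate 2 all 6 were called; without uncoupled untreated replicate 1, untreated GFP-bead replicate 1 or either uncoupled-bead replicate of both drugs none was; and without untreated GFP-bead replicate 2 or GFP-bead replicate 2 of both drugs 1 was. Both drugs against puromycin alone gave differences of 0.51 (MYH10) to 1.31 (ATRX), with DSP at 1.30 ± 0.43 (adjusted p = 0.316), none called, where 0.0751% of genes were called higher.

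CB-6644 against untreated gave differences of 0.72 (MYH10) to 1.30 (MYO5A), and puromycin against untreated gave 0.39 (ATRX) to 1.13 (AKAP12). None of the 6 was called in either, where 0.138% of genes were called higher and 0.0501% lower for CB-6644, and 0.0376% higher and 0.0751% lower for puromycin. Total-count scaling gave 27 higher and 5 lower in place of 22 and 8 for CB-6644, and 0 and 9 in place of 6 and 12 for puromycin. Without uncoupled untreated replicate 2, CB-6644 had DSP, MAP1B and MYO5A called at 1.69, 1.71 and 1.71 (adjusted p = 0.045, 0.0354 and 0.0321), and puromycin had MAP1B and MYH10 called at 1.54 and 1.48 (adjusted p = 0.0271 and 0.0476). Without GFP-bead replicate 2 of CB-6644, MYO5A was called at 1.62 (adjusted p = 0.0296). These comparisons share the untreated libraries with each other.

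Untreated RUVBL1 enrichment was below untreated RPAP3 enrichment by a log2 difference of -1.49 ± 0.38 for MYO5A (adjusted p = 0.0803), -1.29 ± 0.43 for MAP1B (adjusted p = 0.28) and -1.12 to -0.73 for the others. None was called, where 0.347% of the 16695 genes tested were called higher with RUVBL1 and 0.0599% lower. Those 58 and 10 genes were 46 and 19 with upper-quartile scaling. Without uncoupled untreated replicate 2 of RUVBL1, MYO5A (-1.92, adjusted p = 0.00808), MYH10 (-1.59, adjusted p = 0.0259), DSP (-1.57, adjusted p = 0.0307) and MAP1B (-1.74, adjusted p = 0.0317) were called lower.

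On uncoupled beads of the RUVBL1 line no member was called after either drug. The log2 differences from untreated were -0.24 (MYO5A) to 0.07 (DSP) after puromycin and -0.38 (MAP1B) to 0.02 (ATRX) after CB-6644. No gene was called by edgeR in these 2 comparisons as fitted here, although 1464 genes for puromycin and 860 for CB-6644 had an unadjusted p under 0.05. For puromycin edgeR called 33 higher and 41 lower with no filter on low counts and 20 higher and 3 lower with all 24 libraries in 1 fit, and DESeq2 called 19 higher and 11 lower. For CB-6644 edgeR called 3 higher and 14 lower with no filter, and DESeq2 3 higher and 4 lower. None of these was a member.

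GFP beads with RUVBL1 after both drugs were highest for DSP, MAP1B, MYH10, ATRX and MYO5A, and RPAP3 after puromycin was highest for AKAP12. These first 2 groups overlapped for MAP1B and AKAP12, and the second place was held by RUVBL1 after puromycin for MYH10 and by RUVBL1 after CB-6644 for MYO5A. For DSP the mean was 1411 ± 298 CPM (SD, n = 2) with RUVBL1 after both drugs, 856 ± 273 CPM with RPAP3 after puromycin, 594 ± 41.5 CPM with RUVBL1 after CB-6644 and 493 ± 93.1 CPM with RUVBL1 after puromycin. These 4 did not overlap with their neighbours in the order. The next 6 groups, from 340 to 253 CPM, each overlapped with the following one except the last, untreated RPAP3 GFP beads, and both uncoupled-bead groups of RPAP3 came last and overlapped. The first 4 places for MAP1B overlapped in turn. The uncoupled beads of RPAP3 held the lowest 2 places for every mRNA except AKAP12, which was lowest on untreated RUVBL1 GFP beads at 1615 ± 6.05 CPM (SD, n = 2).

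In some groups, though not all, the 6 mRNAs also moved to the same side between replicates. In uncoupled beads of untreated RUVBL1 cells all 6 were lower in replicate 2, by -1.16 to -0.94 on the log2 scale. On GFP beads of RPAP3 after puromycin all 6 were higher in replicate B. On GFP beads of RUVBL1 after puromycin all 6 were lower in replicate 2, by -0.85 to -0.25. After both drugs all 6 were higher in replicate 2 of the GFP beads, by 0.04 to 0.44. On uncoupled beads of RPAP3 after puromycin and on GFP beads of untreated RUVBL1 cells, 3 of the 6 were higher in the second replicate. Other genes were not compared in this way. What part the shared shifts have in the bead and drug differences was not tested.

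**Figure D4:**
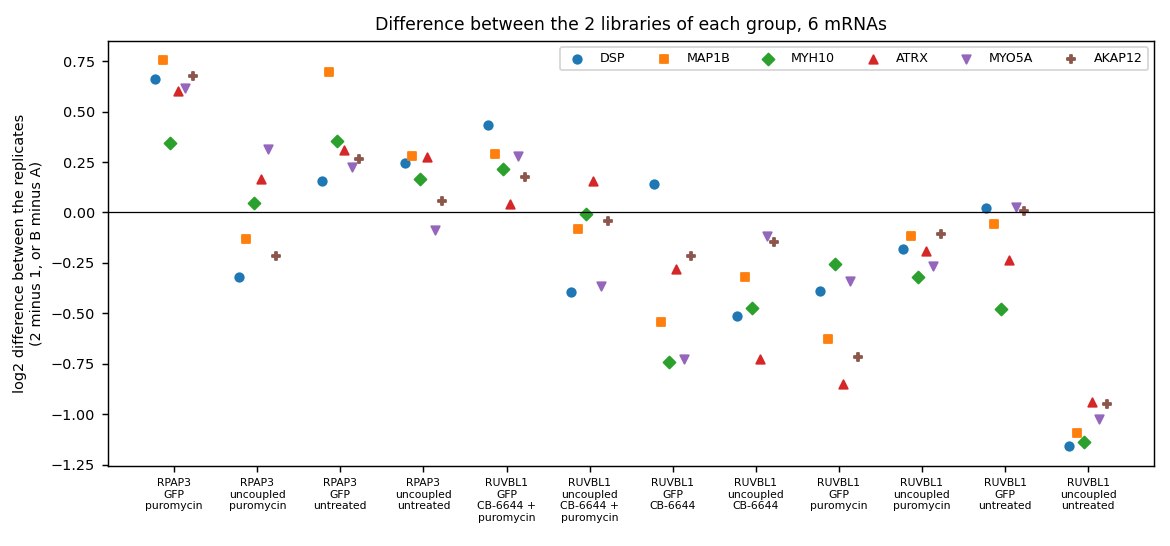
Log2 difference in level between the 2 libraries of each group, replicate 2 minus 1 for RUVBL1 and B minus A for RPAP3, with a symbol per mRNA. The 6 symbols lie on 1 side of 0 in 7 of the 12 groups, lowest at -1.16 to -0.94 on uncoupled beads of untreated RUVBL1 cells.

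Across the 24 libraries, with log2 CPM centred within each line, the genes most like DSP among 10901 ranked were MAP1B (Pearson r = 0.952), AKAP12 (0.938), PCM1 (0.935), MKI67 (0.932) and MYH10 (0.928). ATRX followed at 0.918 in place 7 and MYO5A at 0.898 in place 19. The libraries of RPAP3 after puromycin, which chose the genes, are among the 24 and among the 8 of RPAP3. Likeness between the members was favoured there. Bead type, drug and depth also vary across the libraries, so the values are a description. Over the 8 RPAP3 libraries alone MAP1B was first for DSP at 0.979 and MYO5A at 0.831 was in place 80. Over the 16 RUVBL1 libraries alone, which hold none of the choosing libraries, MYO5A was first at 0.953. There the other members were further down: MAP1B in place 8 (0.929), AKAP12 in 29 (0.91), MYH10 in 39 (0.902) and ATRX in 40 (0.902). PATJ (0.952) and EIF4G3 (0.943) came directly after MYO5A. Over all 24 libraries MAP1B and AKAP12 were the most alike pair, each being first for the other at 0.973. BAZ1B, a chromatin-remodelling subunit, was first for both myosins, at 0.957 for MYH10 and 0.958 for MYO5A. ATRX had SLK and BOD1L1 in its first places, both at 0.966. The second place was held by DSP for MAP1B (0.952), by MAP1B for MYH10 (0.941), by KIF21A for MYO5A (0.954) and by GOLGB1 for AKAP12 (0.949).

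Genes that work with the members were followed as lists. For comparison, the shares of all genes called higher were 0.46% with RPAP3 after puromycin and 1.53% untreated. With RUVBL1 the shares were 0.557% after both drugs, 1.87% after CB-6644, 9.95% after puromycin and 0.914% untreated. Of 13 other desmosome and plakin genes tested in the RPAP3 libraries, MACF1, a plakin that links actin and microtubules, was the only one called, at 0.68 ± 0.15 after puromycin (adjusted p = 0.0378) and 0.95 ± 0.15 untreated (adjusted p = 0.000477). The medians of this list were 0.02 after puromycin and 0.05 untreated, close to all genes. With RUVBL1 after both drugs none of 14 was called, while PKP3 (1.26) and PPL (1.14) were called after puromycin, where 9.95% of all genes were called higher, and EVPL (1.68) after CB-6644. None of 10 intermediate filament genes was called with RPAP3 in either state and none of 11 with RUVBL1 after both drugs, while LMNA (1.16) and LMNB2 (0.95) were called with RUVBL1 after puromycin.

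Among 15 other microtubule-associated proteins, CLIP1, which tracks growing microtubule ends, was the only one called with RPAP3 after puromycin (0.96 ± 0.17, adjusted p = 0.00872), with RPAP3 untreated (0.86 ± 0.17, adjusted p = 0.00836) and with RUVBL1 after both drugs (1.04 ± 0.22, adjusted p = 0.0246). With RUVBL1 after puromycin, where 9.95% of all genes were called higher, 6 of the 15 were, among them CLASP1 (1.44) and MAP1S (1.09), and MAP1LC3B was called lower (-0.66). None was called with RUVBL1 after CB-6644 or untreated.

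Of 16 other myosin heavy chains, 5 were called higher in untreated RPAP3 cells, where 1.53% of all genes were, with MYO9A at 1.70 ± 0.14 (adjusted p = 6.41e-08) at the smallest p-value. After puromycin, where 0.46% of all genes were called, 1 was, MYO9B at 0.61 ± 0.13 (adjusted p = 0.0326). MYO9A had a lower enrichment after puromycin than untreated, by -1.43 ± 0.20 (adjusted p = 0.00037). With RUVBL1 7 of 16 were called after puromycin, against 9.95% of all genes, MYO19 (1.83) and MYH14 (1.47) first, and MYO9B (1.30) after CB-6644. MYO19 (1.23) and MYO9A (1.20) were called untreated, and none after both drugs, where the list's median was 0.85. None of 15 light chains and cargo adaptors was called with either bait in any of the 6 enrichments.

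Of 17 A-kinase anchoring proteins and protein kinase A subunits, none was called with RPAP3 in either state. The highest ratios in this list were still 1.62 after puromycin and 0.78 untreated, against 1.49 and 0.44 for AKAP12. With RUVBL1 1 was called in each treatment: AKAP9 after both drugs (1.70 ± 0.25, adjusted p = 0.00059), AKAP17A after CB-6644 (0.86) and AKAP13 after puromycin (1.08). The shares of all genes called higher in these were 0.557%, 1.87% and 9.95%. Of 22 ATRX partners and SNF2-type remodellers, 4 were called with untreated RPAP3, CHD2 (1.60 ± 0.15, adjusted p = 2.41e-07) and CHD1 (1.48 ± 0.15, adjusted p = 1.53e-06) first, and 2 after puromycin, CHD3 (0.80) and CHD8 (0.64). Here 1.53% of all genes were called higher untreated and 0.46% after puromycin. CHD2 and CHD1 had a lower enrichment after puromycin than untreated, by -1.08 and -1.04 (adjusted p = 0.0138 and 0.0274). With RUVBL1 CHD3 (1.11) and CHD4 (1.14) were called after both drugs, CHD3 (1.07) and CHD4 (1.21) after CB-6644, and 6 of the 22 after puromycin, against 9.95% of all genes, among them CHD4 (1.40).

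A list of 23 other long coiled-coil proteins, which shares AKAP9 with the A-kinase anchoring proteins, had called genes in all 6 enrichments. With RUVBL1 after puromycin these were 3, where 9.95% of all genes were called higher. After CB-6644 they were 3, against 1.87% of all genes, and untreated 1, against 0.914%. This list was drawn up with the earlier results known, so its counts are no independent evidence. After puromycin 8 were called with RPAP3, where 0.46% of all genes were, at a median log2 ratio of 0.59. Untreated 7 were called with RPAP3, against 1.53% of all genes, at a median of 0.49. With RUVBL1 after both drugs 7 were called, against 0.557% of all genes, at a median of 0.83. AKAP9 (1.70) and CENPE (1.53 ± 0.24, adjusted p = 0.00128) were first. CENPE is a kinetochore motor and AKAP9 a centrosome and Golgi scaffold. GOLGA4 is a golgin of the trans-Golgi. With RPAP3 its ratio was 1.88 ± 0.18 after puromycin and 6.62 ± 0.23 untreated, a difference of -4.74 ± 0.26 (adjusted p = 1.54e-10). With RUVBL1 it was 1.76 ± 0.35 after both drugs and 4.26 ± 0.38 untreated, a difference of -2.50 ± 0.48 (adjusted p = 0.021), where DSP differed by 2.14.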

How the data were processed

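RNA recovered on GFP-Trap or agarose beads from the RPAP3 line (8 libraries) and the RUVBL1 line (16 libraries) was sequenced with a stranded kit, per the labels' protocols. The deposited table holds counts per gene, whole numbers, not normalized, for 28307 genes. Per the submitters' processing notes, the build was hg38, and the tools named are featureCounts 2.0.3, TopHat2 2.1.1, bcl2fastq 2.20.0.422, MultiQC 1.12 and FastQC 0.11.9; the strand setting of the counting is not given in the sources used here.

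Counts were tested in R 4.3.3 with edgeR 4.0.16: filterByExpr, TMM scaling, a robust quasi-likelihood fit with 1 coefficient per group, and Benjamini-Hochberg adjustment over all genes of the fit at 0.05. Each line was fitted alone, and all 24 libraries together for levels and for the difference between lines. All 6 mRNAs passed every filter. Enrichment is log2 of the level on GFP beads over that on uncoupled beads, and a change is the difference of 2 enrichments. SEs were taken from the log2 value and its F statistic. Likeness used log2 CPM with a prior count of 2 for genes averaging at least 5 CPM. DESeq2 1.42.0, other scalings, no filter, other sets of libraries and left-out libraries were alternatives. The steps were tested on simulated counts.

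The members and the gene lists were chosen with earlier results of these data known. The genes named were the 6 members, RPAP3 and POLR2A for scale, the 2 called genes of smallest p in each list (some are not reported here), and the 5 genes (2 for the other members) most alike; the other genes named, such as MKI67, GOLGA4, the last and first genes at the threshold and those called in small numbers, were picked after their values were seen. Gene positions and biotypes come from RefSeq.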

Additional observations from a re-analysis of the deposited data

Results flagged for a closer look

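Enrichment with RUVBL1 differed between cells given both drugs and untreated cells for DSP, by a log2 difference of 2.14 (adjusted p = 0.0378), and for MAP1B, by 2.34 (adjusted p = 0.00852), in a test of the difference itself by edgeR's quasi-likelihood method. This comparison was added after the values were seen. The DSP call was lost with total-count scaling (adjusted p = 0.0693 by the same method). Without uncoupled untreated replicate 1 the differences were 1.44 for DSP and 1.67 for MAP1B. AKAP12 lay below uncoupled beads in both untreated RUVBL1 libraries, by -0.562 in mean log2 CPM, and above them in both libraries of the other 5 pairs of bait and treatment. The difference of AKAP12 between both drugs and untreated was 1.86 with an adjusted p of 0.111, and its difference between untreated RUVBL1 and untreated RPAP3 was -1.06 with an adjusted p of 0.361.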

How the results depend on the processing

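No called value changed sign under any alternative run, and the median enrichment of the 6 mRNAs with RPAP3 after puromycin stayed at 1.24 to 1.79. Counts of members called moved as follows, and the cause was not tested. With RPAP3 untreated the count was 1 when all 24 libraries were fitted together and 4 with no filter, in place of 3. With RUVBL1 after both drugs it was 3 in place of 4 with total-count scaling, 5 under upper-quartile scaling and the replicate block, and 6 with no filter, by DESeq2, in the fit of 24 libraries and in a fit of the compared libraries. With RUVBL1 after CB-6644 it was 2 in place of 1 under upper-quartile scaling, total-count scaling, no filter, the replicate block, DESeq2 and the fit of 24 libraries, and 0 in a fit of the compared libraries. With RUVBL1 after puromycin it was 1 in place of 0 with no filter, the replicate block and the fit of 24 libraries, 2 by DESeq2 and 3 in a fit of the compared libraries. The change with CB-6644 had 2 in place of 0 with no filter. RUVBL1 below RPAP3, untreated, had 1 in place of 0 under upper-quartile scaling, the replicate block and DESeq2, and 2 with no filter. Both drugs against untreated, a comparison added after seeing the data, had 1 in place of 2 with total-count scaling, 3 with upper-quartile scaling and in a fit of the compared libraries, 4 with the replicate block and the fit of 24 libraries, and 6 with no filter and by DESeq2. Both drugs against puromycin, also added, had 2 in place of 0 with no filter and 4 in a fit of the compared libraries. Leaving out 1 library gave 2 to 3 in place of 3 for RPAP3 untreated, 0 to 1 after CB-6644, 0 to 3 in place of 4 after both drugs, 0 to 2 for the puromycin change, 0 to 3 for the CB-6644 change, 0 to 4 for RUVBL1 below RPAP3, and 0 to 6 for both drugs against untreated; a lone library is then assumed to vary like the other groups. The median puromycin difference on RPAP3 uncoupled beads was 0.036 with upper-quartile scaling in place of 0.21. Total-count scaling put the median of all genes at 0.26 for RUVBL1 after CB-6644 and at 0.30 for the CB-6644 change. Replicates share a number or letter, and whether they were paired across groups is not given in the sources used here. Their deviations correlated at 0.02 to 0.39 between RPAP3 groups, over 0.1 in 4 of 6 pairs of groups. Between RUVBL1 groups the values were -0.48 to 0.47, over 0.1 in 15 of 28. The replicate block moved no count of members beyond those given. It called more of all genes higher, such as 276 in place of 233 with RPAP3 untreated and 129 in place of 89 with RUVBL1 after both drugs. Genes called over the whole table, in either direction, are given as reported, over the other settings, and with 1 library left out. They were 70, 16 to 136 and 12 to 108 with RPAP3 after puromycin, 234, 57 to 318 and 118 to 403 with RPAP3 untreated, and 38, 16 to 64 and 31 to 63 for the RPAP3 change. With RUVBL1 they were 89, 83 to 333 and 18 to 67 after both drugs, 387, 12 to 1533 and 53 to 3554 after CB-6644, 2201, 2217 to 4805 and 307 to 1356 after puromycin, and 149, 70 to 408 and 43 to 193 untreated. They were 18, 9 to 199 and 8 to 348 for the puromycin change, 30, 11 to 284 and 20 to 1506 for the CB-6644 change, and 68, 9 to 191 and 13 to 112 for RUVBL1 against RPAP3. For the comparisons of both drugs they were 34, 25 to 160 and 16 to 113 against untreated, and 17, 15 to 382 and 7 to 24 against puromycin. Replicates differed by 13.5 to 99.8 times the counting variance, so counting error is the smaller part of their spread.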
